A study of Homo sapiens with 16 samples.

Results

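The genes described here encode the respiratory chain and the ATP synthase, counted in A101D and MeWo, both melanoma lines of human origin. The set held 102 protein-coding genes of the 60676 in the count tables. It comprised the 13 mRNAs of the mitochondrial genome and 89 nuclear genes whose symbols name a subunit or accessory protein of complexes I to IV or of the ATP synthase. The choice was by symbol, so CYC1, the cytochrome c1 of complex III, fell outside it. A few regulators, such as the ATP synthase inhibitor ATP5IF1, fell inside it. All 13 mitochondrial mRNAs and 83 of the 89 nuclear genes had enough counts to be tested. The 6 untested genes, NDUFC2-KCTD14, COX4I2, COX6A2, COX6B2, COX7B2 and COX8C, reached at most 0.610 CPM (counts per 1e6 counts of a scaled library) in any library.

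RNA of 16 libraries was sequenced, 8 from each line. The labels give A101D as dependent on methionine and MeWo as independent of it, and the series addresses what exchanging methionine for homocysteine in the medium does to such cells. Both lines were grown in a high-glucose medium made without methionine and cystine, to which dialyzed serum, glutamine, pyruvate and cystine were added. The control medium then received methionine and the other medium homocysteine, but no label says which library came from which medium. The values are given here for 4 groups of 4 libraries, which are A101D replicates 1 to 4, A101D replicates 5 to 8, and the same numbers of MeWo. The labels do not say what the replicate numbers stand for, nor whether the libraries came from separate cultures, so p-values measure the spread between these libraries. Each line is a single cell line, and a difference between A101D and MeWo is a difference between those 2 lines.

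Complexes I to IV of the inner mitochondrial membrane pass electrons from NADH and succinate to oxygen, and complexes I, III and IV pump protons as they do so. The ATP synthase lets the protons return and makes ATP. Complex II is encoded in the nucleus alone, whereas the other complexes combine nuclear subunits with subunits made on mitochondrial ribosomes. The mitochondrial mRNAs are cut out of long polycistronic transcripts, and MT-ND6 is the only one of them encoded on the light strand. The nuclear genes have promoters of their own and are scattered over the chromosomes. Melanoma cells differ among themselves in how far they rely on respiration, and the coactivator PPARGC1A is known to raise it in a subset of melanomas.

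The depth was 28910881 to 38961862 counts per library. Melanocyte lineage genes were expressed in both lines, and all 8 of the list were tested. Their summed level was 2931 to 3511 CPM and then 2458 to 2690 CPM in the sets of A101D, where 5 of the 8 were lower and 2 higher in replicates 5 to 8. It was 10010 to 11660 CPM over the MeWo libraries. In A101D the pigment enzyme genes TYR and TYRP1 stayed at or below 1.72 CPM while MITF, SOX10, DCT and S100B were abundant. Summed blood markers were at most 0.573 CPM in every library and none of the 5 was tested. Between the sets of A101D, all 3 endothelial markers were higher in replicates 5 to 8 (summed level 3.81 to 4.86 CPM, then 14.9 to 19.4 CPM), as were the 2 tested of 4 epithelial markers (1.53 to 1.56 CPM, then 3.80 to 4.18 CPM). Of the 5 fibroblast markers, 2 were higher and 2 lower, with a median log2 fold change of 0.26. Their summed level, nearly all of it COL1A2, was 937 to 1061 CPM and then 574 to 640 CPM. Over all tested genes, 35.8% were lower and 29.6% higher in the same comparison of A101D, at limma's adjusted p of 0.05. The number of genes with a count also differed, at 31281 to 33107 in A101D replicates 1 to 4 and 34020 to 34607 in replicates 5 to 8. MeWo replicate 2 stood apart from its group with 34471 such genes, against 30256 to 31035 in the other three. The part of these values in the results below was not tested.

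Summed over the genes, the mitochondrial mRNAs and the nuclear genes moved in opposite directions between the replicate sets of A101D. The 13 mitochondrial mRNAs took 0.950%, 0.788%, 0.976% and 1.02% of all counts in A101D replicates 1 to 4, and 1.24%, 1.14%, 1.21% and 1.15% in replicates 5 to 8, so the 2 sets did not overlap. The 89 nuclear genes took 0.980%, 1.00%, 0.954% and 0.979% in replicates 1 to 4 and 0.806%, 0.853%, 0.844% and 0.868% in replicates 5 to 8, again without overlap but in the other direction. The ratio of the 2 sums was therefore 0.956 ± 0.117 (SD, n = 4) in the first set and 1.41 ± 0.10 in the second. In MeWo the mitochondrial share was 0.623%, 0.644%, 0.654% and 0.678% in replicates 1 to 4 and 0.555%, 0.672%, 0.607% and 0.614% in replicates 5 to 8, with overlap. The nuclear share of MeWo was 0.967% ± 0.025 (SD, n = 4) in replicates 1 to 4 and 0.967% ± 0.012 in replicates 5 to 8. MeWo therefore had about as large a nuclear share as A101D replicates 1 to 4 beside a lower mitochondrial share, and its ratio was 0.673 ± 0.039 and 0.633 ± 0.053 in the 2 sets. These shares are given without a test. In bulk RNA, fewer cells of a kind and less RNA per cell cannot be told apart.

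**Figure D1:**
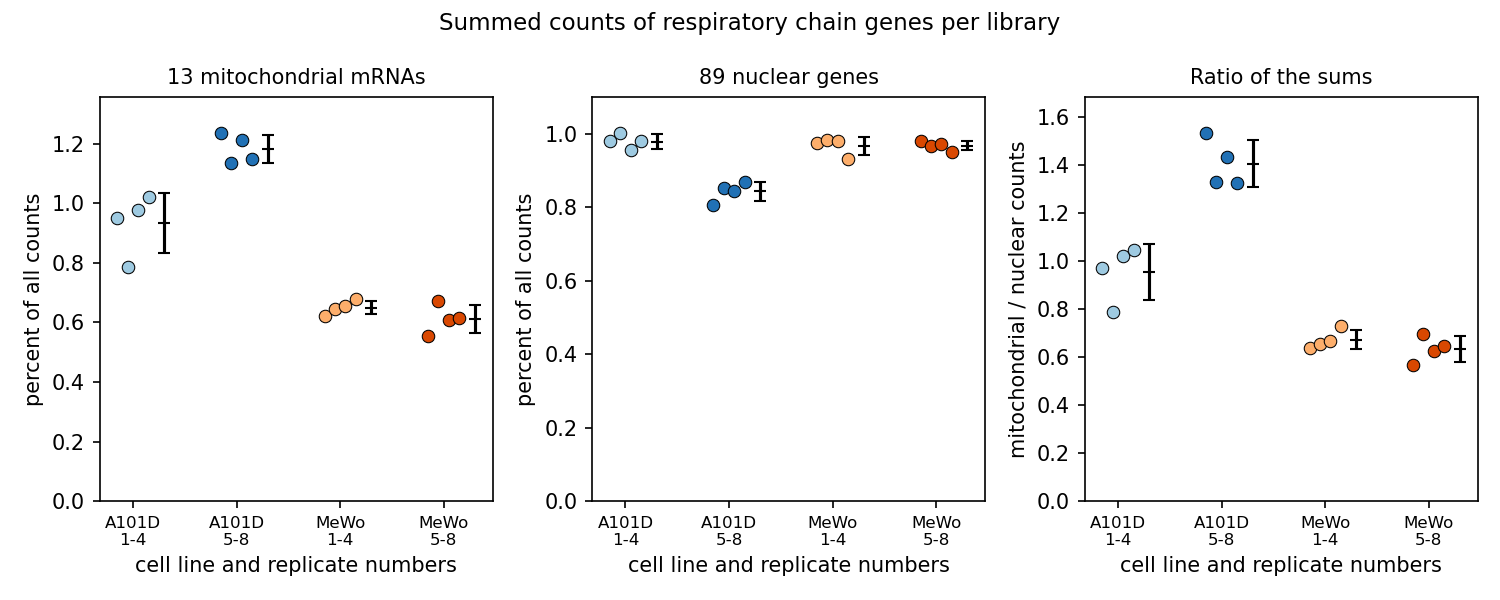
Percent of all counts taken by the 13 mitochondrial mRNAs (left) and the 89 nuclear genes (middle), and the ratio of the 2 sums (right), for each library, with the mean and SD of each group beside the points. The mitochondrial share of A101D lay higher in replicates 5 to 8 (1.14% to 1.24%) than in 1 to 4 (0.788% to 1.02%), and the nuclear share lay lower.

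Complex IV dominated the mitochondrial share. Per kb of exon, the highest level over all libraries was that of MT-CO3 at 2723 CPM per kb, followed by MT-CO1 at 2232 and MT-CO2 at 1939, the 3 catalytic core subunits. MT-ND3, a small membrane subunit of complex I, came next at 695 CPM per kb, and MT-ND6 was lowest at 52.7. Among nuclear genes ATP5F1B, the catalytic beta subunit of the ATP synthase, led with 505 CPM per kb. COX8A had 401, NDUFS5 263, COX6B1 214 and NDUFB7 207 CPM per kb. The exon length is the union over all annotated transcripts, so it exceeds the main mRNA of many nuclear genes and lowers their values.

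Between the replicate sets of A101D, 8 of 13 mitochondrial mRNAs were higher in replicates 5 to 8 and 2 were lower by limma's moderated test at an adjusted p of 0.05. Over all 21569 tested genes, 29.6% were higher and 35.8% were lower in this comparison. The median log2 fold change was 0.20 over the 13 mRNAs and -0.05 over all tested genes. The largest rise was that of MT-ND2, a proton-pumping membrane subunit of complex I. MT-ND2 had 70.0, 64.7, 74.3 and 73.3 CPM in replicates 1 to 4 and 113, 99.4, 111 and 102 CPM in replicates 5 to 8. All libraries of replicates 5 to 8 lay above all of replicates 1 to 4, and the log2 fold change was 0.59 with an SE of 0.08 (adjusted p = 2.3e-06).

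MT-CO3, a core subunit of cytochrome c oxidase, had 2369, 1982, 2440 and 2564 CPM in A101D replicates 1 to 4 and 3239, 2995, 3166 and 3018 CPM in replicates 5 to 8. The sets did not overlap, replicate 2 was the lowest, and the log2 fold change was 0.41 (SE 0.06, adjusted p = 3.9e-05). MT-ND1, the subunit of complex I near its quinone site, rose by 0.31 on the log2 scale (SE 0.05), and MT-ATP6, the proton channel subunit of the ATP synthase, by 0.27 (SE 0.07). The other 4 that rose were MT-ATP8 (0.26), MT-ND4 (0.24), MT-CO1 (0.20) and MT-ND3 (0.14). MT-CO1, which holds the oxygen-reducing centre, is an instance of sets that lay close together. It had 4040, 3356, 4218 and 4313 CPM in replicates 1 to 4 and 4729, 4346, 4741 and 4400 CPM in replicates 5 to 8, with an adjusted p of 0.023. Its sets did not overlap, but the highest value of the first, 4313 CPM, was near the lowest of the second, 4346 CPM.

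The exceptions lay in the same complexes. MT-CO2, which carries the copper site that takes electrons from cytochrome c, had 1813, 1531, 1820 and 1927 CPM in A101D replicates 1 to 4 and 1510, 1470, 1591 and 1596 CPM in replicates 5 to 8. It fell by 0.20 on the log2 scale (SE 0.05, adjusted p = 0.0022). Of replicates 1 to 4, only replicate 2 lay among replicates 5 to 8. MT-ND5, a further proton-pumping subunit of complex I, fell by 0.28 on the log2 scale (SE 0.08, adjusted p = 0.0045). MT-CYB, MT-ND4L and MT-ND6 did not pass the threshold, with log2 fold changes of 0.07, 0.07 and -0.21. Scaling by total counts or by upper quartiles in place of trimmed means raised the median of all tested genes in this comparison by 0.16 and 0.14. Under either, 10 mitochondrial mRNAs were higher and 0 lower, and MT-CO2 and MT-ND5 lost their calls with log2 fold changes of -0.04 and -0.12 on total counts.

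In MeWo, 0 of the 13 mitochondrial mRNAs were higher and 3 were lower in replicates 5 to 8, beside 4.59% and 8.51% of all tested genes. The median over the 13 was -0.17. MT-CO2 had 1099, 1112, 1119 and 1080 CPM in replicates 1 to 4 and 830, 956, 881 and 884 CPM in replicates 5 to 8. The sets did not overlap, and it fell by 0.31 on the log2 scale (SE 0.05, adjusted p = 4.7e-04). MT-ND5 fell by 0.37 (adjusted p = 0.0054) and MT-ND4 by 0.28 (adjusted p = 0.0080). MT-ND6 had the lowest log2 fold change of the 13, -0.41 (SE 0.14), but did not pass the threshold. MT-CO3 had 1520, 1586, 1573 and 1526 CPM and then 1442, 1681, 1558 and 1492 CPM, a log2 fold change of -0.01. Leaving out A101D replicate 2, which enters this comparison through the shared spread and the scaling, gave 6 lower mRNAs. A fit on the MeWo libraries alone gave 5, and omitting the low-count filter gave 1.

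The difference between the lines in this contrast was tested directly, as the contrast of MeWo minus that of A101D. It was below 0 for 7 of 13 mitochondrial mRNAs and above 0 for 0, beside 20.8% of all tested genes below and 27.6% above. The 7 were MT-ND2 (-0.63, adjusted p = 1.4e-04), MT-ND4 (-0.52), MT-ATP6 (-0.47), MT-ATP8 (-0.43), MT-CO3 (-0.42), MT-ND1 (-0.38) and MT-CO1 (-0.34). For MT-CO2 and MT-ND5 the 2 lines did not differ past the threshold, with differences of -0.12 (SE 0.08) and -0.09 (SE 0.11). Under median-of-ratios scaling 11 mRNAs were below 0.

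**Figure D2:**
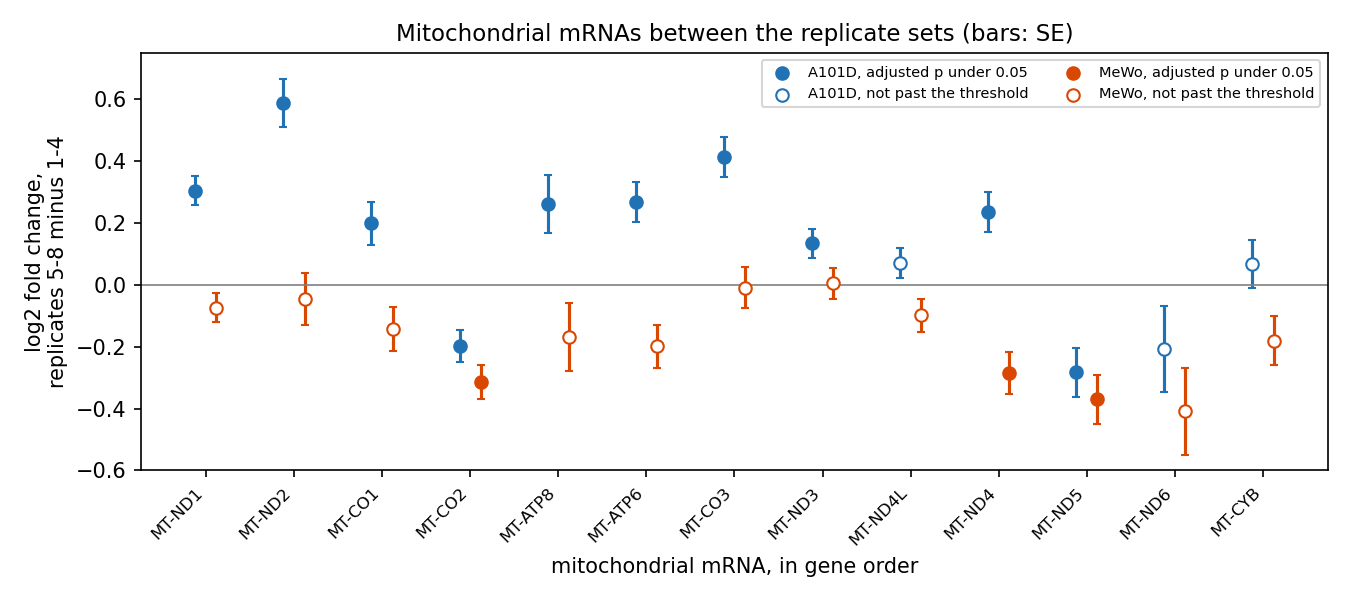
Log2 fold change (replicates 5 to 8 minus 1 to 4) with its SE for each mitochondrial mRNA, in the order of the genes on the mitochondrial genome, for A101D (blue) and MeWo (orange); filled points passed the adjusted p of 0.05. Most A101D points lie above 0, up to 0.59 for MT-ND2, whereas MT-CO2, MT-ND5 and MT-ND6 lie below 0 in both lines. MT-ND6 did not pass the threshold in either line.

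Within the mitochondrial mRNAs, the share of MT-CO2 was lower and that of MT-CO3 higher in replicates 5 to 8 of both lines. MT-CO2 made up 18.1%, 18.3%, 17.8% and 18.1% of the mitochondrial mRNA counts in A101D replicates 1 to 4 and 13.2%, 13.8%, 13.9% and 14.6% in replicates 5 to 8. In MeWo it made up 16.8%, 16.3%, 16.8% and 16.4%, then 14.8%, 14.6%, 14.7% and 14.9%. In A101D the mean share of MT-CO3 was 23.8% ± 0.2 (SD, n = 4) and then 27.9% ± 0.3, and in MeWo it was 23.3% ± 0.2 and then 25.6% ± 0.4. The share of MT-CO1 stayed between 40.1% and 42.1% in all 16 libraries. These shares do not depend on library scaling, and they are given without a test.

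The mitochondrial genome also encodes ribosomal and transfer RNAs. The ribosomal RNAs MT-RNR1 and MT-RNR2 had log2 fold changes of -0.19 and -0.13 in A101D (adjusted p = 0.26 and 0.35). Of the 19 ribosomal and transfer RNAs of that genome that were tested, 8 were higher and 3 lower in A101D replicates 5 to 8, beside 29.6% and 35.8% of all tested genes. In MeWo 2 were higher and 5 lower, beside 4.59% and 8.51%. The difference between the lines was above 0 for 0 of the 19 and below 0 for 6, beside 27.6% and 20.8%, with a median of -0.37. MT-TM, the methionine tRNA, had the largest rise. It reached 3.69 to 5.53 CPM in A101D replicates 5 to 8 after 0.109 to 0.427 CPM in replicates 1 to 4, a log2 fold change of 4.37 (SE 0.38, adjusted p = 1.4e-12). In MeWo MT-TM went from 0.146 to 0.745 CPM to 0.843 to 1.43 CPM, a log2 fold change of 2.21 (SE 0.38, adjusted p = 1.0e-04). MT-TM lies directly beside MT-ND2 on the mitochondrial genome. MT-ND2 had log2 fold changes of 0.59 in A101D and -0.05 in MeWo. Whether the changes of these neighbours are linked was not tested.

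The nuclear genes of the chain were lower in A101D replicates 5 to 8 throughout the complexes. Of 83 tested, 63 were lower and 5 higher at an adjusted p of 0.05, beside 35.8% and 29.6% of all tested genes. Their median log2 fold change was -0.35, against -0.05 over all tested genes. Under total-count scaling the split was 49 lower and 12 higher. Complexes were assigned by symbol, which places NDUFA4, now known as a complex IV subunit, under complex I. By complex, 4 of 4 complex II genes were lower (median -0.64), 16 of 20 tested ATP synthase genes (median -0.45), 29 of 38 complex I genes (median -0.32), 7 of 12 complex IV genes (median -0.29) and 7 of 9 complex III genes (median -0.21).

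The largest fall among nuclear genes of at least 10 CPM was that of ATP5F1C, the gamma subunit that forms the rotating stalk of the ATP synthase. ATP5F1C had 144, 150, 135 and 135 CPM in A101D replicates 1 to 4 and 68.3, 72.3, 73.6 and 82.0 CPM in replicates 5 to 8. The sets were far apart, and it fell by 0.93 on the log2 scale (SE 0.05, adjusted p = 6.1e-21). ATP5MC3, a gene for subunit c of the proton-driven ring, had 287, 284, 260 and 276 CPM and then 143, 151, 154 and 164 CPM. It fell by 0.86 (SE 0.04). The other genes for the same mature subunit c, ATP5MC1 and ATP5MC2, fell by 0.59 and 0.52. The alpha subunit gene ATP5F1A fell by 0.62 and the beta subunit gene ATP5F1B by 0.45. ATP5F1B is the most abundant of the nuclear genes per kb, with 1337, 1437, 1293 and 1307 CPM and then 931, 1005, 991 and 1008 CPM. The inhibitor ATP5IF1 showed no call, with 59.3 to 59.9 CPM and then 58.5 to 59.9 CPM.

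In complex IV, COX5A, a matrix-facing subunit beside the catalytic core, had 109, 113, 105 and 109 CPM in A101D replicates 1 to 4 and 55.2, 58.9, 62.0 and 65.8 CPM in replicates 5 to 8. The sets did not overlap, and it fell by 0.85 (SE 0.05, adjusted p = 6.2e-18). COX7B fell by 0.47, COX4I1 by 0.43, COX7C by 0.35, COX5B by 0.30, COX6B1 by 0.28 and COX6C by 0.26. COX6A1, COX7A2 and COX8A had log2 fold changes of 0.07, -0.08 and 0.05 without a call. COX8A passed the threshold as higher under median-of-ratios, upper-quartile and total-count scaling, at 0.13 to 0.21.

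In complex III, UQCRC1, a large core protein on the matrix side, had 288, 283, 279 and 277 CPM and then 141, 155, 162 and 174 CPM. There was no overlap between the sets, and the fall was 0.84 on the log2 scale (SE 0.05). UQCRB fell by 0.72. UQCRFS1, the iron-sulfur protein that hands electrons to cytochrome c1, was instead higher, at 115, 127, 117 and 118 CPM and then 126, 133, 133 and 128 CPM. Its log2 fold change was 0.12 (SE 0.04, adjusted p = 0.0095), and the sets overlapped through replicate 2.

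In complex II, which also serves the tricarboxylic acid cycle as succinate dehydrogenase, all genes fell. SDHC, a membrane anchor, had 96.3, 101.4, 93.6 and 94.6 CPM in A101D replicates 1 to 4 and 55.1, 54.6, 57.1 and 61.3 CPM in replicates 5 to 8. It fell by 0.76 on the log2 scale (SE 0.05). The flavoprotein SDHA fell by 0.70, the iron-sulfur subunit SDHB by 0.59 and the anchor SDHD by 0.39. Named pseudogenes of SDHA hold 19030 counts in these libraries beside 21528 for SDHA itself, so its level depends on how shared reads were assigned.

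In complex I, NDUFB4, an accessory membrane subunit, fell by 0.82 on the log2 scale, from 79.8 to 87.9 CPM in replicates 1 to 4 to 44.2 to 52.5 CPM in replicates 5 to 8. NDUFS3 and NDUFB9 fell by 0.71 and 0.70. The core subunits NDUFS1 and NDUFV1, of the matrix arm that takes electrons from NADH to quinone, fell by 0.37 and 0.23. NDUFA3, an accessory subunit, was higher in replicates 5 to 8 (38.8 to 42.8 CPM, then 44.6 to 46.8 CPM), with a log2 fold change of 0.20 (SE 0.05).

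The 5 higher nuclear genes were COX7A2L (log2 fold change 0.28), NDUFA3, UQCRFS1, NDUFA4L2 and the read-through gene ATP5MF-PTCD1. COX7A2L, a supercomplex assembly factor that shares its family name with complex IV subunits, had 95.0, 102, 98.7 and 98.3 CPM and then 118, 122, 122 and 118 CPM. Its sets did not overlap (SE 0.04, adjusted p = 3.4e-08). NDUFA4L2, a paralog of NDUFA4 that is a known target of the hypoxia response, had 1.43, 1.43, 1.09 and 1.16 CPM and then 3.51, 3.40, 3.72 and 3.67 CPM. Its log2 fold change was 1.47 (SE 0.15), at a level far below that of NDUFA4 (224 to 230 CPM, then 205 to 217 CPM). ATP5MF-PTCD1 had at most 0.344 CPM in A101D and shares 93.8% of its exon bases with its neighbours.

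**Figure D3:**
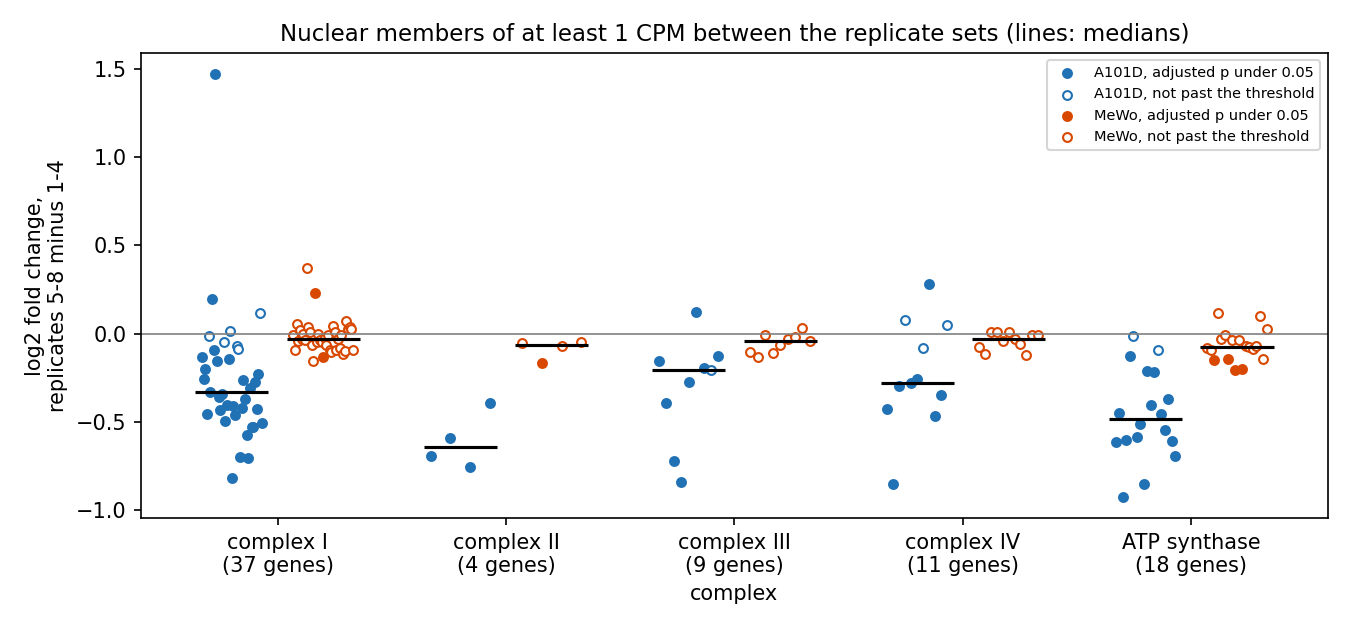
Log2 fold change (replicates 5 to 8 minus 1 to 4) of the nuclear genes with a mean of at least 1 CPM, by complex, for A101D (blue) and MeWo (orange); filled points passed the adjusted p of 0.05 and the black lines are medians of the points drawn. The A101D points lie mostly between 0 and -0.93 in every complex, and the MeWo points lie close to 0.

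Promoters are shown for 4 of these genes because nuclear genes of all the complexes moved together, and NRF1, GABP and YY1 are textbook activators of such genes. RefSeq promoters (GRCh38.p14, 250 bases before to 50 after the start) were held for 70 of the 89 nuclear genes. The printed sequences run from 250 bases before to 30 after the start, 5′ to 3′ on the strand of the gene. Capitals mark exact matches, on either strand, to the core TGCGCA of NRF1, CCGGAAG of ETS factors such as GABP, and AAGATGG of YY1. ATP5F1C (chr10:7787927-7788206, plus strand) and UQCRC1 (chr3:48609617-48609896, minus strand) fell in A101D replicates 5 to 8, and COX7A2L (chr2:42361188-42361467, minus strand) and NDUFA3 (chr19:54102605-54102884, plus strand) rose.
ATP5F1C: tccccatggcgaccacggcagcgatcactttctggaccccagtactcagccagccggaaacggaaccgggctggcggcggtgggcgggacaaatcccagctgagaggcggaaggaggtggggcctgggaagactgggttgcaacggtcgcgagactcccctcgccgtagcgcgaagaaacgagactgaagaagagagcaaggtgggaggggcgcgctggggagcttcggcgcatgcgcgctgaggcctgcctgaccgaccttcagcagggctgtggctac
UQCRC1: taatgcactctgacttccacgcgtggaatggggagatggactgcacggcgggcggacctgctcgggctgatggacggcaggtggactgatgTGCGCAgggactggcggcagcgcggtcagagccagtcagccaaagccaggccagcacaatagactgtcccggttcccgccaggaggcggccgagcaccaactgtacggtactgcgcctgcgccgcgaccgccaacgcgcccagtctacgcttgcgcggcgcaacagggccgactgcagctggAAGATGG
COX7A2L: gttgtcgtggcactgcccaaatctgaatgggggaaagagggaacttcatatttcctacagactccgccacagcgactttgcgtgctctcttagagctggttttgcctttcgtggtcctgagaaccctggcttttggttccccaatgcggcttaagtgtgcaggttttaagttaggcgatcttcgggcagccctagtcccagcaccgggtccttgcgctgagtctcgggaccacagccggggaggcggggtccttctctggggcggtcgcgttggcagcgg
NDUFA3: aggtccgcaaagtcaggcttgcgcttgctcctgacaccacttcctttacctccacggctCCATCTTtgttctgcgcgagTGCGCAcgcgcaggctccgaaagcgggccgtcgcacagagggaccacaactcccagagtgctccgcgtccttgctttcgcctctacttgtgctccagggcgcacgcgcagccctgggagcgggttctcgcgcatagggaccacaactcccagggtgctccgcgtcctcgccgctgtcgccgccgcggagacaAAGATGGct
Among these 4, matches were present in 1 that fell and 1 that rose. The promoters of COX5A, which fell, and UQCRFS1, which rose, were searched alike but are not printed. Both were without a match to the 3 cores. UQCRC1 held 1 NRF1 core at -159 and 1 YY1 core at 24, counted from the start as 1. NDUFA3 held 1 NRF1 core at -171 and 2 YY1 cores at -191 and 22. ATP5F1C and COX7A2L held no exact match to the 3 cores in this window. Only these exact letters were searched, so a site spelled otherwise, such as a variant of the NRF1 core, was not counted.

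Over the 300-base windows, the NRF1 core was present in 28.6% of the 70 nuclear genes and in 10.8% of all 15842 protein-coding promoters. The ETS core was present in 28.6% and 14.2%, and the YY1 core in 22.9% and 6.4%. The GC box GGGCGG was present in 61.4% and 58.5%. Over the 11657 promoters of tested genes the shares were 12.7%, 17.6%, 7.09% and 67.5% in the same order, and the set's share of the GC box lay below that of tested genes. Both strands were searched, and an ETS core and a YY1 core can share the letters AAG. Among the 50 promoters of genes lower in A101D replicates 5 to 8, 32.0% held the NRF1 core, 32.0% the ETS core and 28.0% the YY1 core, and 29 held the GC box. Of the 15 promoters of other tested genes of the set, 3 held the NRF1 core, 4 the ETS core, 2 the YY1 core and 12 the GC box. These shares describe letters in the sequence and not binding, and with 15 promoters the second set of counts is imprecise.

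In MeWo, 6 nuclear genes were lower and 1 was higher in replicates 5 to 8, of 83 tested, beside 8.51% and 4.59% of all tested genes. The median was -0.04. ATP5MC3, with 231, 239, 224 and 201 CPM and then 201, 193, 194 and 186 CPM, fell by 0.21 on the log2 scale (SE 0.04, adjusted p = 9.6e-04). The others that fell were ATP5MF (0.20), SDHB (0.16), ATP5F1C (0.15), ATP5MC1 (0.14) and NDUFB4 (0.13). NDUFB1, a small membrane subunit of complex I, was higher (0.23, SE 0.05), at 32.6 to 36.9 CPM and then 40.0 to 43.6 CPM. These counts moved with single libraries. In MeWo replicate 4 the nuclear share was lowest, at 0.931% against 0.975% to 0.982% in the other three of its set. Without it the 7 calls were kept, and 26 nuclear genes were lower and 1 was higher; without replicate 1 or 2, 2 were lower and 1 higher; without replicate 3 or 8, 3 were lower and 1 higher. Under total-count scaling 3 were lower and 2 higher, and under upper-quartile scaling 4 and 2.

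The direct test found the contrast of MeWo above that of A101D for 56 of 83 nuclear genes and below it for 5, beside 27.6% and 20.8% of all tested genes. The median difference was 0.30, against 0.06 over all tested genes. It was largest for ATP5F1C (0.78, SE 0.07), followed by UQCRC1 and COX5A (0.73 each), ATP5F1D (0.72), ATP5PO (0.72) and UQCRB (0.72). The 5 below 0 were COX7A2L (-0.34), NDUFA3 (-0.20), UQCRFS1 (-0.15), NDUFA4L2 (-1.10) and ATP5MF-PTCD1 (-1.56). The membrane subunits ATP5MJ, NDUFB8 and NDUFB2 were among the 22 without a call.

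Between the lines, 12 of 13 mitochondrial mRNAs were lower in MeWo than in A101D and 0 were higher, beside 45.6% and 41.1% of all tested genes. The contrast averages the line differences of the 2 replicate sets, and its median was -0.74 over the 13 mRNAs and -0.05 over all tested genes. The log2 fold changes ran from -0.91 for MT-ATP8 to -0.25 for MT-ND5. MT-CO1 ran from 3356 to 4741 CPM (median 4330) over the A101D libraries, and MeWo lay at 2288 to 2779 CPM (median 2728). The lines did not overlap in MT-CO1, MT-CO2 (1470 to 1927 CPM against 830 to 1119 CPM) and MT-CO3 (1982 to 3239 CPM against 1442 to 1681 CPM). MT-ND6 had a log2 fold change of -0.05 (SE 0.10, adjusted p = 0.63). Its highest value was 42.8 CPM in MeWo replicate 2, against 27.4 to 28.5 CPM in the other three of that set, and without that library all 13 were lower in MeWo.

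Nuclear genes went both ways between the lines, 36 higher and 35 lower in MeWo of 83 tested, beside 41.1% and 45.6% of all tested genes, with a median of 0.03. The largest differences were those of NDUFB2 and ATP5PD. NDUFB2, an accessory subunit of complex I, had 183 to 220 CPM in A101D (median 207) and 45.9 to 51.4 CPM in MeWo (median 49.4). Its log2 fold change was -2.07 (SE 0.03, adjusted p = 7.0e-43). ATP5PD, part of the stator stalk of the ATP synthase, had 60.9 to 91.9 CPM in A101D (median 77.1) and 265 to 321 CPM in MeWo (median 302), a log2 fold change of 1.98 (SE 0.03). NDUFS8, a core iron-sulfur subunit of complex I, and NDUFC2 were higher in MeWo by 1.39 and 1.29, and UQCRB, UQCRC1 and COX7C by 1.09, 0.97 and 0.85. NDUFV3, NDUFA9, ATP5MF, ATP5PF and SDHD had log2 fold changes of -1.34, -1.05, -0.98, -0.97 and -0.78. NDUFB2 shares 35.9% of its exon bases with other genes and ATP5PD 19.1%, so some of their reads could belong to those.

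Several of the genes that differed most between the lines lay among neighbours whose median difference had the same direction. The 16 tested genes within 1 Mb of NDUFB2 had a median log2 fold change of -2.07, and all of them lay between -7.92 and -1.48. The median was 1.82 over 62 neighbours of ATP5PD (range -2.77 to 6.36) and 1.63 over 22 of NDUFC2 (-5.72 to 4.85). It was -1.23 over 24 of NDUFV3 (-5.09 to 3.32) and -2.53 over 16 of NDUFA9 (-8.55 to 1.98). Single neighbours of each of these genes thus went both ways. All 24 neighbours of SDHD lay between -5.34 and -0.33, with a median of -2.35. The neighbours of UQCRB, 5 in number, had a median of 0.16, beside its own difference of 1.09. Of the 83 tested nuclear genes, 8 differed by more than 2-fold past the threshold, beside 8595 of all 21569 tested genes. The neighbours' median was beyond 2-fold for 7 of the 83. Over the 8, the neighbours' median lay on the same side for 7 and was itself beyond 2-fold for 5. The exception in side was ATP5MF-PTCD1, at 1.02 with a neighbours' median of -0.60. DNA copy number was not measured in these files.

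**Figure D4:**
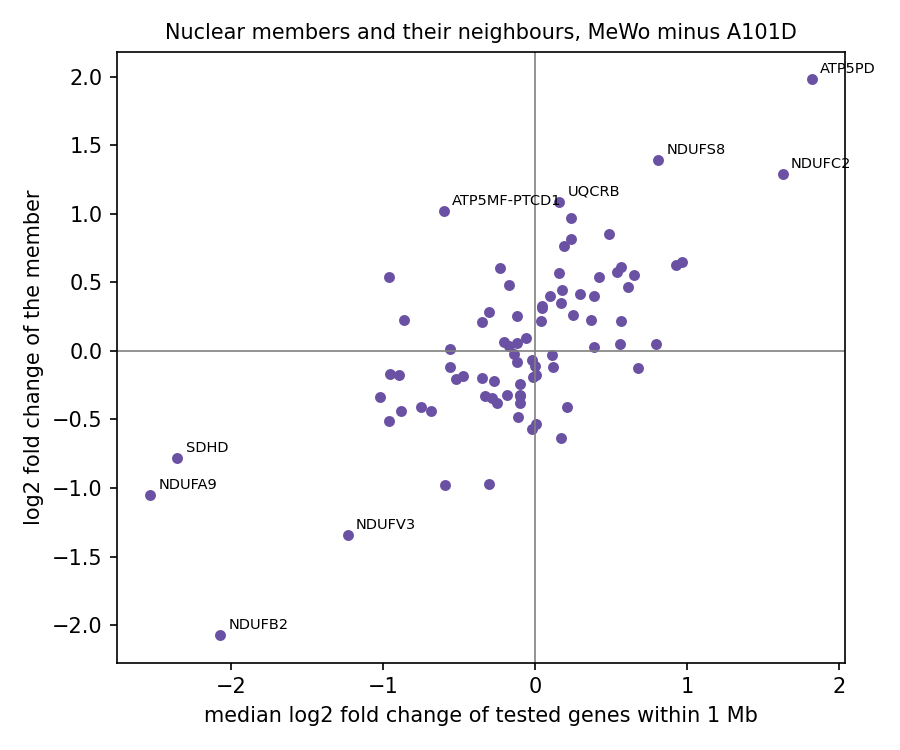
Log2 fold change between the lines (MeWo minus A101D) of each tested nuclear gene against the median of the tested genes within 1 Mb of it. NDUFB2 (-2.07 against a median of -2.07) and ATP5PD (1.98 against 1.82) lie at the ends of the pattern, and UQCRB (1.09 against 0.16) lies off it.

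Of the genes with tissue-restricted alternatives, the broadly expressed form was the abundant one. COX4I1 had 170 to 248 CPM in A101D, whereas its lung form COX4I2 reached at most 0.0601 CPM in any library. COX6A1 and COX7A2 had 78.3 to 91.6 and 100.7 to 118 CPM in A101D, and the heart and muscle forms COX6A2 and COX7A1 at most 0.100 and 0.381 CPM in any library. The testis forms COX6B2, COX7B2 and COX8C reached at most 0.610, 0.218 and 0.0318 CPM. COX6C, COX7A2, COX7C and COX8A were higher in MeWo by 0.82, 0.54, 0.85 and 0.57, and COX5B, COX6B1, COX7A2L and NDUFA4, now known as a complex IV subunit, were lower by log2 fold changes of -0.41, -0.38, -0.34 and -0.33. UQCRH and its near-identical intronless copy UQCRHL had log2 fold changes of -0.64 and 0.40 between the lines, and reads could have been split between them. NDUFA7 and NDUFV2 had only 0.668 to 1.23 and 2.09 to 4.55 CPM, and 33.5% and 28.4% of their exon bases are shared with other annotated genes.

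Among the genes that serve the chain, those of electron carriers and the tricarboxylic acid cycle were mostly lower in A101D replicates 5 to 8. Of 15 carrier genes (coenzyme Q synthesis, cytochrome c and cytochrome c1), 13 were lower and 2 higher, with a median of -0.27, beside 35.8% lower and 29.6% higher over all tested genes. CYCS, cytochrome c, fell by 0.61 and CYC1 by 0.74. PDSS1 and COQ3 fell most (0.84 and 0.81), and COQ5 and COQ8B were higher (0.49 and 0.30). Of 13 cycle genes 10 were lower and 1 higher, with a median of -0.43. FH, fumarase, went from 135 to 150 CPM in the first set of A101D down to 56.1 to 69.6 CPM in the second (fall of 1.17), and CS, citrate synthase, fell by 0.93. OGDH was the 1 that rose (0.58). In MeWo 2 of the 13 cycle genes were lower, FH by 0.20 and IDH3A by 0.16, beside 8.51% of all tested genes.

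Assembly factors did not share one direction. Of 16 complex I assembly genes, 9 were lower and 5 higher in A101D replicates 5 to 8, from TIMMDC1 (-0.94) and ECSIT (-0.57) to NDUFAF4 (0.53) and NDUFAF1 (0.80). Of 35 assembly genes of the other complexes, 12 were lower and 13 higher, from SDHAF1 (-1.30) and UQCC2 (-0.81) to COX10 (0.58) and COA8 (0.62). Both lists stand beside 35.8% lower and 29.6% higher over all tested genes, which likewise went both ways. Of 77 tested mitochondrial ribosomal protein genes, 40 were lower and 19 higher, with a median of -0.13, beside 35.8% and 29.6% of all genes. MRPL30 and MRPL18 were lowest (-0.78 and -0.72), and MRPS17 and MRPS2 highest (0.87 and 0.67).

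Genes that make and handle mitochondrial RNA also split, 15 lower and 8 higher of 30 tested in A101D, beside 35.8% and 29.6% of all tested genes. LRPPRC, which stabilises mitochondrial mRNAs, lay at 351 to 402 CPM in the first set of A101D and at 244 to 261 CPM in the second, a fall of 0.56. TFAM, the packaging and initiation factor of mitochondrial DNA, fell by 0.24, and POLRMT, the mitochondrial RNA polymerase, had a log2 fold change of -0.11 (adjusted p = 0.056). TWNK, the replicative helicase, rose by 0.53. Among nuclear regulators of the chain, 5 of 9 were lower, ESRRA (-0.67), PPARGC1B (-0.38), NRF1 (-0.36), CREB1 (-0.22) and PPARGC1A (-0.17), and YY1 (0.26) and GABPA (0.23) were higher. The change of PPARGC1A is about as large as the shift between scalings. ESRRA had 57.8 to 69.8 CPM and then 38.0 to 41.2 CPM in the sets of A101D. Those of MeWo had 83.5 to 92.5 and then 82.9 to 93.1 CPM, and the direct test gave a difference of 0.64 (adjusted p = 1.7e-10). Between the lines 8 of the 9 regulators were higher in MeWo, beside 41.1% of all tested genes, among them PPARGC1A by 0.68 and ESRRA by 0.80, and GABPA was lower (-0.76).

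Part of the mitochondrial counts could belong to nuclear copies of mitochondrial genes, of which 404 were listed. Together they held 40.5 to 65.3 CPM per library of A101D, while the MeWo libraries held 30.5 to 39.6 CPM. For MT-ATP6 the named copies held 16012 counts beside 139336 of the gene, and for the other 12 mRNAs the share was smaller. In all, 49 of the 89 nuclear genes and 5 of the 13 mitochondrial genes share exon bases with another annotated gene, and the counting strand is not given in the sources used here.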

How the data were processed

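Per the file headers, the authors deposited raw exon counts from sorted alignments, in 1 table for A101D and 1 for MeWo, whose cells each join an Ensembl identifier to its count. The submitters' processing notes name GRCh38, Trimmomatic 0.39-1, STAR 2.7.1a and featureCounts 2.0.0. Neither the annotation release nor the counting strand is stated in these sources. Per the labels' protocols, libraries were made with a stranded total RNA kit. All 16 columns, each with 60676 genes, were matched to samples by line and replicate number in the header. Symbols came from a name table holding 60357 of the identifiers, and positions and exon lengths from GENCODE 29, which holds 58503.

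Counts were scaled with trimmed means of M-values (trims of 30% and 5%). Genes with 0.298 CPM (10 counts at the median depth) in 4 or more libraries and a total of 15 counts were tested, 21569 in number. One model with 4 group means was fitted to the 16 libraries with limma 3.58.1 (voom weights, robust moderation, statmod 1.5.0, R 4.3.3). The tests were two-sided, with Benjamini-Hochberg adjustment over all tested genes and a threshold of 0.05. CPM values are on the scaled libraries and shares are on total counts. A count model was not run, because cells that join an identifier to a number failed the unit check for counts. The limma step was tested on simulated counts. Depth was 28910881 to 38961862 counts per library. No pair of replicates was a duplicate: the chi-square per degree of freedom between replicates was at least 1.86.

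The members, the gene lists and the boundary between replicates 4 and 5 were chosen with earlier results of these data known. Named genes were the 13 mitochondrial mRNAs, the 6 nuclear members with the largest change in each direction per comparison among those past the threshold with at least 10 CPM, genes with paralogs or tissue forms, and the 2 largest changes in each direction per list. NDUFS1, NDUFV1, NDUFS3, NDUFB9, ATP5MJ, NDUFB8, NDUFA7, NDUFV2 and ATP5MF-PTCD1 were named after their values were seen. One further member is not reported here by name.

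Alternatives were median-of-ratios, upper-quartile and total-count scaling, scaling without mitochondrial genes, no low-count filter, a minimum of 1 CPM, an adjusted p of 0.01, limma-trend (prior count 2), the replicate number as a block, fits on 1 line alone or with 2 line means, another total for the shares, and leaving out each library.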

Additional observations from a re-analysis of the deposited data

Results flagged for a closer look

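In 17 of 232 groups of 4 libraries, one library lay farther from the other three than Dixon's 95% critical value allows. Chance flags about 1 in 20 groups. In MeWo replicate 2, MT-ND2 stood at 66.2 CPM against 48.0 to 49.7 in the other three libraries of its set, MT-ND4 at 231 CPM against 199 to 203, and MT-ND6 at 42.8 CPM against 27.4 to 28.5. In the same library 34471 genes had a count. In MeWo replicate 4, ATP5PD stood low at 265 CPM (others 298 to 300), COX7A2 at 143 CPM (164 to 166), SDHC at 48.5 CPM (54.7 to 55.3) and NDUFB1 at 32.6 CPM (36.2 to 36.9). The nuclear share of that library was 0.931% against 0.975% to 0.982%. In A101D replicate 2, MT-ND5 stood low at 160 CPM (others 198 to 205), and COX7A2 and SDHD stood high at 118 CPM (109 to 110) and 74.0 CPM (68.5 to 69.2). In A101D replicate 5, COX6C and COX7C stood low at 46.5 CPM (57.99 to 58.9) and 92.6 CPM (105.1 to 105.4). Single values were NDUFB2 in A101D replicate 1 at 208 CPM (219 to 220), NDUFA9 in A101D replicate 8 at 19.8 CPM (18.7 to 18.8), UQCRB in MeWo replicate 7 at 160 CPM (164 to 165) and NDUFB4 in MeWo replicate 5 at 77.6 CPM (72.1 to 72.7).

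The change from replicates 1 to 4 to replicates 5 to 8 differed between the lines, by limma's test of the difference itself (MeWo minus A101D), for 7 mitochondrial and 61 nuclear genes. The values are given for those 7 and, among nuclear genes of at least 10 CPM, for the 6 largest above 0 and the 3 below 0. It was below 0 for MT-ND2 (-0.63), MT-ND4 (-0.52), MT-ATP6 (-0.47), MT-ATP8 (-0.43), MT-CO3 (-0.42), MT-ND1 (-0.38) and MT-CO1 (-0.34). It was also below 0 for COX7A2L (-0.34), NDUFA3 (-0.20) and UQCRFS1 (-0.15). It was above 0 for ATP5F1C (0.78), COX5A (0.73), UQCRC1 (0.73), UQCRB (0.72), ATP5F1D (0.72) and ATP5PO (0.72). Without MeWo replicate 2, MeWo replicate 4 and A101D replicate 2 in turn, 9, 8 and 8 mitochondrial and 60, 60 and 54 nuclear genes were called for this difference.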

How the results depend on the processing

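Mitochondrial mRNAs were lower in MeWo in 12 of 13 under every scaling, filter, threshold and model tried, and in 12 to 13 when single libraries were left out. The nuclear count between the lines was 71, it was 69 to 76 with single libraries left out, and it was 58 with 2 line means in place of 4 group means. Between the replicate sets of A101D, the ranges with single libraries left out were 9 to 12 mitochondrial and 63 to 70 nuclear calls. For the difference between the lines they were 7 to 10 and 54 to 62. For MeWo they were 3 to 6 and 3 to 27, against 3 and 7 with all libraries. The number of mitochondrial mRNAs called in MeWo was 1 without a low-count filter and 5 in a fit on the 8 MeWo libraries. The number of nuclear genes called in MeWo was 4 at a threshold of 0.01. The mitochondrial count for the difference between the lines was 11 with median-of-ratios factors. The cause was not tested, except that a stricter threshold calls fewer genes by construction.

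In the A101D comparison, 4 named genes changed sign under another scaling with a call in the main or the other setting. Changes of sign without a call in either setting are not counted here. NDUFA4, called lower, was at 0.045 (upper quartile) and 0.069 (total counts, where it was called higher), ATP5IF1 at 0.12 and 0.15, and on total counts NDUFB2 was at 0.016 and NDUFB1 at 0.11. Of the values of single genes under alternatives, 61 lost and 73 gained a call at the same sign. A further 6 changed sign with a call in the main or the other setting. The remaining 2375 kept direction and side of the threshold, or changed sign without a call in either setting. Without ribosomal, RN7S and mitochondrial RNA in the total, the nuclear share was 1.01% in A101D replicates 1 to 4, and 0.996% and 0.988% in the 2 sets of MeWo. With single libraries left out, the mean mitochondrial share ranged from 0.905% to 0.983% and from 1.17% to 1.20% in the 2 sets of A101D, and from 0.641% to 0.659% and from 0.592% to 0.631% in those of MeWo. The nuclear share ranged from 0.971% to 0.987% and from 0.834% to 0.855% in A101D, and from 0.962% to 0.979% and from 0.963% to 0.972% in MeWo.

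Same-numbered libraries of the 2 lines correlated at only -0.017 to 0.052 in their deviations from the group means. The best match in MeWo carried the same number for A101D replicates 1, 2, 4 and 8 and another number for the rest. The labels do not say whether the numbers pair the libraries, and correlations this weak cannot decide it. With the replicate number as a block, 12 mitochondrial and 72 nuclear genes were called between the lines, and 8 and 60 for the difference. A block could not be fitted within a line, where each number occurs once. Quasi-likelihood and negative-binomial count tests, listed as alternatives, were not run. Among the genes of the set, the highest SE was 0.63, for ATP5MF-PTCD1 in the difference between the lines.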
